A study of Olea europaea with 24 samples.

Results

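In branches of olive trees (Olea europaea), 55 of 31784 rows with gene model IDs stood low on 23 May in watered and dried trees, stood low on 6 June in dried trees, and stood higher on every other sampling of either arm. The set was chosen by measured values. For each row, the median of log2(scaled count + 1) was taken over the 3 trees of each group of arm and day, where a scaled count is the authors' value after size-factor scaling. The 3 low groups were watered trees on 23 May, dried trees on 23 May and dried trees on 6 June. A row was kept when its medians in those groups spanned less than 1.5, when its lowest median in the other 5 groups was at least 5, and when that lowest median exceeded the highest low median by at least 1.5. This last difference is called the gap. Up to 150 rows with the largest gaps were to be kept, and 55 met the criteria. The pattern itself is therefore how the members were found, and their low and high levels are given as a description.

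The study sampled branches of 6 trees on 7 May, 23 May, 6 June and 29 July, and made poly-A RNA libraries from each. Trees 3, 9 and 11 were watered trees, and trees 4, 8 and 12 were dried trees, which makes 8 groups (arm by day) of 3 trees. Per the labels, the irrigation of the trees was 1.2 litres per day, and dried trees received 1 litre per week for 2 weeks and no water for the next 2 weeks. Heat, drought and recovery are named in the title of the series, but the labels used here give no temperature and tie neither heat nor the dry weeks to a sampling day. The low samplings are therefore called by arm and day. The same trees were sampled on each day and each library is 1 tree, so a tree that stands apart can do so on several days. The p-values rest on a spread between trees that is estimated over all 8 groups together. Except where the tree is a block, the days of 1 tree count as independent. Leaving out a library can therefore change calls in contrasts that do not use its group.

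An olive branch is a mixed organ that holds bark, cambium, wood and, in its living cells, starch and soluble sugars that a tree draws on when photosynthesis falls. Starch is built from ADP-glucose by starch synthases and branching enzymes and is broken down by amylases, while sucrose carries carbon between organs and is split by sucrose synthases and invertases. Shortage of water and high temperature both close or limit leaf gas exchange in trees and change the transcript levels of many genes. In bulk tissue such as this, fewer cells of a type and less RNA per cell cannot be told apart. The IDs of the 55 members carry no gene names here, because 0 of them matched the RefSeq gene table of the assembly O_europaea_v1. No function is given to them, and no sequence is shown.

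Libraries held 6675360 to 14122826 counts. A group of 14 abundant rows without names varied together (pairwise median r of at least 0.9) and took 10.3% to 85.4% of a library, so that the count left for all other rows ran from 1403314 to 9243251. Members are not among the abundant rows. Scaling made 1 count worth 0.33 to 5.46 scaled units, so a level near 0 rests on little sequence. The median member had 2 to 20.2 counts in the 9 low libraries, and 36 to 359 counts in 14 of the 15 other libraries. The remaining library, watered tree 9 on 7 May, had a median member count of 2. It stood apart: its levels across all rows correlated at r = 0.462 to 0.598 with the other watered trees of that day, and its closest library was dried tree 12 on 6 June (r = 0.772). Watered tree 9 on 23 May also stood apart, at r = 0.458 to 0.614 within its group. Watered tree 3 on 23 May was closer to dried tree 4 of that day (r = 0.901) than to its own group (r = 0.458 to 0.789). These correlations are across rows within libraries, which are not independent replicates. Whether the labels of these libraries match their samples cannot be told from the values, and each library is named by its label. Values without them stand beside several of the results they moved.

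The low groups stood near each other, as the rule asks. The other groups did too, although the rule limits only how low they can be. The median over members of the group medians was 3.84 in watered trees on 23 May, 3.76 in dried trees on 23 May and 3.62 in dried trees on 6 June, on the log2(scaled count + 1) scale. In the other groups it was 6.46 in watered trees on 6 June, 6.57 in watered trees on 7 May, 6.73 in dried trees on 29 July, 6.83 in dried trees on 7 May and 6.92 in watered trees on 29 July. The mean of the low group medians minus the mean of the other group medians was -2.80 for the median member, with a range of -6.47 to -1.97, against -0.18 over all 31784 ID rows.

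Within groups the trees did not move as one. In watered trees on 7 May, the median member level was 6.98 in tree 3, 3.04 in tree 9 and 6.50 in tree 11. In watered trees on 23 May it was 3.33 in tree 3, 5.85 in tree 9 and 4.56 in tree 11. Tree 9 was thus low on the day its group was high, and the highest of its group on the day its group was low. On 6 June watered trees 3, 9 and 11 stood at 6.90, 6.21 and 6.19, and on 29 July at 6.64, 6.78 and 7.08. Dried trees 4, 8 and 12 stood at 7.05, 6.96 and 5.33 on 7 May, with tree 12 below the others. They stood at 3.76, 3.56 and 4.28 on 23 May, and at 4.82, 2.55 and 3.60 on 6 June. On 29 July they stood at 6.66, 6.73 and 6.86, the narrowest spread of any group (6.75 ± 0.10, SD, n = 3). The group that varied most was watered trees on 7 May (5.505 ± 2.15, SD, n = 3), whose range held 8 of the 9 low libraries.

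**Figure D1:**
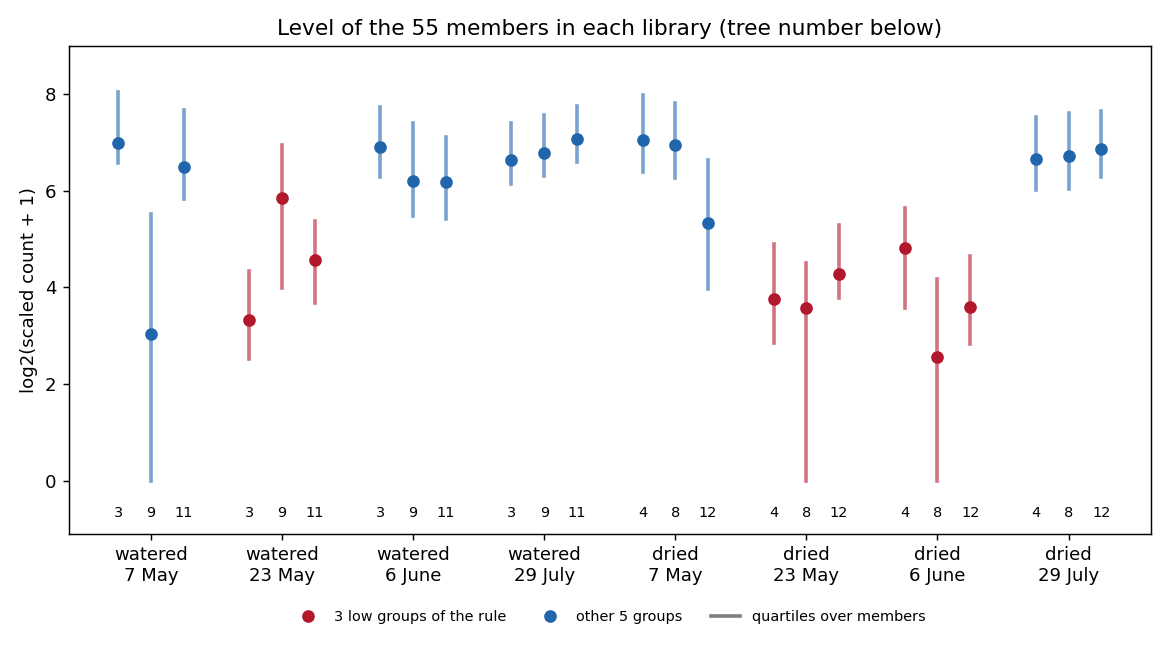
Level of the 55 members in each of 24 libraries, on a log2(scaled count + 1) axis, with a point for the median member and a bar for the quartiles over members. Watered tree 9 stands at 3.04 on 7 May and at 5.85 on 23 May, against the order of its groups.

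For each member, a library was counted as low when it lay below the middle of that member's gap. In watered trees on 23 May, all 55 members were low in tree 3, 39 in tree 11 and 25 in tree 9. A median over 3 trees needs only 2 low trees, so the low level of this group rested on tree 3 together with at least 1 of the others. In dried trees on 23 May, 54, 52 and 47 members were low in trees 4, 8 and 12, and on 6 June 40, 52 and 54 were. Outside the low groups, 43 members were low in watered tree 9 on 7 May and 24 in dried tree 12 on 7 May. The other 13 libraries of those groups held 0 to 9 low members each. Tree 9 was low on both 7 May and 23 May for 20 members, and low on 7 May but not on 23 May for 23.

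**Figure D2:**
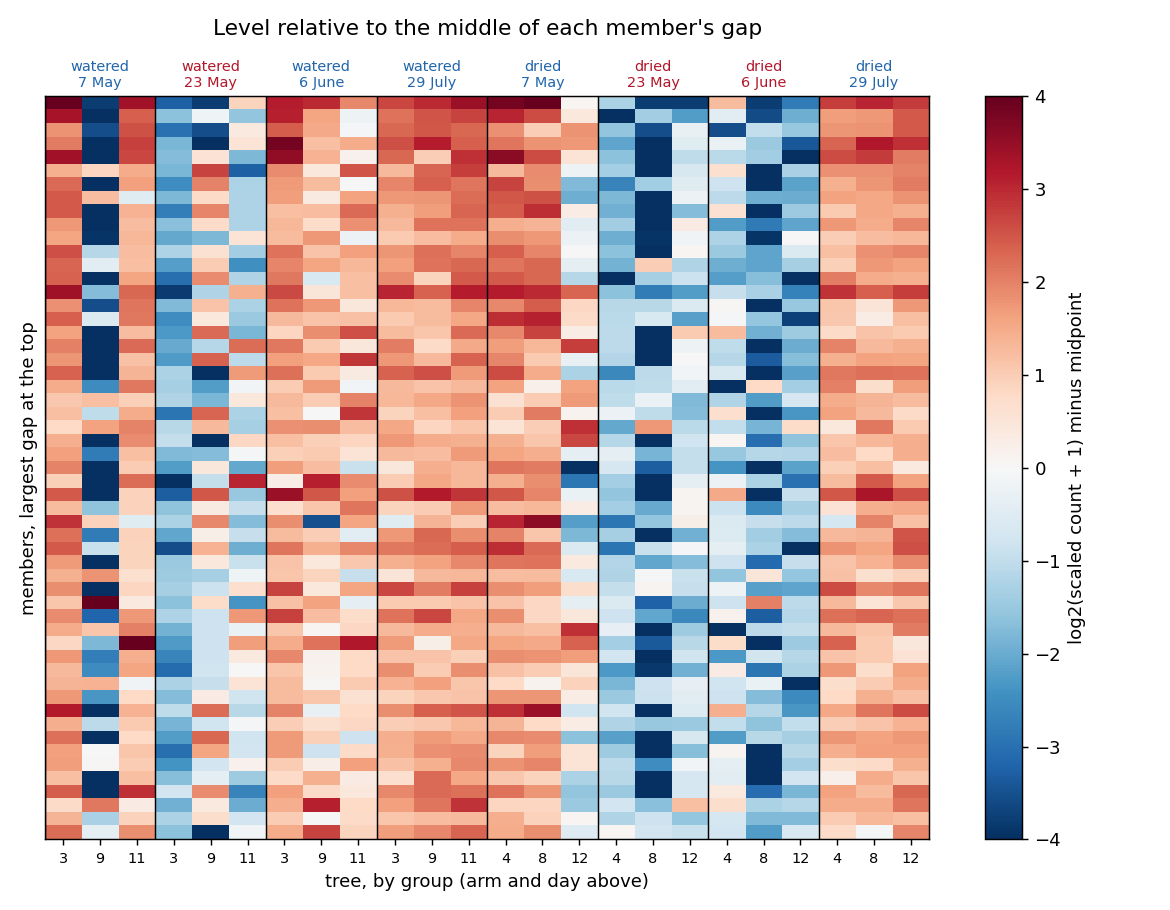
Each line of cells is 1 of the 55 members, ordered by gap, and each column is 1 library. Colour gives log2(scaled count + 1) minus the middle of that member's gap, so blue is low; values beyond 4 in either direction are drawn at the end of the scale. The column of watered tree 9 on 7 May is blue for 43 members.

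Taken library by library, few members separated the groups fully. The 9 low libraries lay below all 15 others for 2 of 55 members, Oeu002049.1 and Oeu056747.1, which are named after their values were seen. Of all ID rows, 18 did so (0.0566%). The rule used these same libraries, so nothing is read from that share. With the libraries of watered tree 9 on 7 May and 23 May left out, 14 members separated the groups. The share over all ID rows was not taken without these libraries, so nothing is read from this count either.

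The member Oeu002049.1 had 10.8, 6.67 and 35.6 scaled counts in watered trees 3, 9 and 11 on 23 May. In dried trees 4, 8 and 12 it had 12.5, 21.7 and 7.06 on 23 May and 10.9, 4.85 and 16.2 on 6 June. All 15 other libraries held between 41.0 (dried tree 4 on 7 May) and 108 (watered tree 11 on 6 June). Watered tree 9 on 7 May, low for most members, stood at 61.3 here, among the other libraries of that day. The counts behind the low values were 2 to 30.

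The member Oeu056747.1 was at 5.88, 13.3 and 20.2 scaled counts in watered trees 3, 9 and 11 on 23 May. In dried trees it was at 19.3, 0 and 8.47 on 23 May and at 0, 11.3 and 12.1 on 6 June, in trees 4, 8 and 12. Its levels elsewhere ran from 25.5 in watered tree 9 on 6 June to 191 in dried tree 12 on 7 May. Both of these members were thus present at moderate levels in every library outside the low groups, including those that stood apart.

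The largest gap, 5.60, belonged to Oeu040217.1, followed by 3.15 for Oeu001534.1. For Oeu040217.1 the watered trees 3, 9 and 11 had 240.3, 0 and 141 scaled counts on 7 May, and 0.452, 0 and 24.9 on 23 May. They had 123, 109 and 52.0 on 6 June and 87.8, 109 and 153 on 29 July. Tree 9 was at 0 on both May days, and tree 11 was well above the other low libraries of 23 May. Dried trees 4, 8 and 12 had 198, 273 and 13.7 on 7 May, 4.82, 0 and 0 on 23 May, 32.8, 0 and 1.01 on 6 June, and 94.0, 116 and 96.4 on 29 July. The 32.8 of dried tree 4 on 6 June rested on 6 counts. This was the only member with a median of 0 in a low group.

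Levels of Oeu001534.1 in watered trees 3, 9 and 11 were 308, 0 and 163 scaled counts on 7 May, 9.04, 26.7 and 9.50 on 23 May, 269, 91.9 and 26.0 on 6 June and 140.0, 177 and 204 on 29 July. In dried trees 4, 8 and 12 they were 259.6, 188 and 40.6 on 7 May, 0.964, 10.8 and 5.65 on 23 May, 21.8, 1.62 and 7.08 on 6 June and 97.7, 104 and 169.7 on 29 July. Watered tree 11 on 6 June, at 26.0, lay within the range of the low libraries, and watered tree 9 on 7 May lay below all of them.

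The most abundant member was Oeu054006.1, whose lowest median in the other groups was 11.34 on the log2 scale, with a gap of 2.38. Watered trees 3, 9 and 11 held 11771, 339 and 5577 scaled counts on 7 May and 77.8, 494 and 3023 on 23 May. They held 7081, 1569 and 2582 on 6 June and 9286, 5857 and 9916 on 29 July. Tree 11 on 23 May was higher than trees 9 and 11 on 6 June, so the watered groups of those days overlap. Dried trees 4, 8 and 12 held 10070.2, 8947 and 5667 on 7 May, 364, 162 and 242 on 23 May, 600.5, 458 and 174 on 6 June, and 8398, 5886 and 7723 on 29 July. Within the dried arm, the 6 low libraries lay below the 6 others. The next by level was Oeu042101.2, with a lowest median of 8.78, a gap of 1.61 and a range over the low groups of 1.499, just inside the limit. Its dried libraries ran from 16.2 to 317 scaled counts on 23 May and 6 June and from 349.8 to 841 on 7 May and 29 July.

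Most members were near the criteria rather than far inside them. The median gap was 1.91. A gap of at least 2 was found for 24 members and of at least 3 for 3. The smallest gaps kept were 1.507 and 1.509, and the first rows outside had 1.499 and 1.48. The widest range kept was 1.499, and the next row outside had 1.52. The lowest level kept was 5.06, with rows at 4.98 just outside. If any range was allowed, 157 rows met the other criteria, and if any level was allowed, 402 did. The same criteria with high and low exchanged were met by 17 rows. With dried trees on 6 June as the only low group, 202 rows met them, but the limit on range excludes no row there. With both arms on 23 May as the only low groups, 6 did.

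Which group was lowest differed between members. The lowest of the low groups was dried trees on 6 June for 22 members, dried trees on 23 May for 20 and watered trees on 23 May for 13. Among the other 5 groups, the lowest was watered trees on 6 June for 22 members, watered trees on 7 May for 16, dried trees on 7 May for 9 and dried trees on 29 July for 8. The highest was dried trees on 7 May for 20 members and watered trees on 29 July for another 20. On 6 June the watered trees' median was more than 1 below that of 7 May for 3 members and more than 1 above it for 3.

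The share of the 14 abundant rows moved with the low pattern in part. It was 16.9% to 85.4% in the 9 low libraries (median 61.9%) and 10.3% to 73.7% in the 15 others (median 26.4%). Watered tree 3 on 23 May, where every member was low, had a share of 16.9%. Dried tree 4 on 29 July, where 1 member was low, had a share of 69.2%, and watered trees 9 and 11 on 6 June, with 5 and 9 low members, had 66.5% and 73.7%. Scaled to the counts outside the abundant rows, the members together had 142 to 1660 CPM in the low libraries. They had 1760 to 6617 CPM in the other libraries, watered tree 9 on 7 May left out, which had 289.8 CPM. Much of these sums was 1 member, Oeu054006.1. It held 2545 of 4992 member counts in watered tree 11 on 23 May, and 28259 of 51919 in watered tree 3 on 7 May. For the median member, log2(CPM + 1) on this scale was 0.88 to 3.24 in the low libraries. In the others it was 3.56 to 5.40, with watered tree 9 on 7 May, at 0.66, left out. The part of the abundant rows in the pattern was not tested further.

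**Figure D3:**
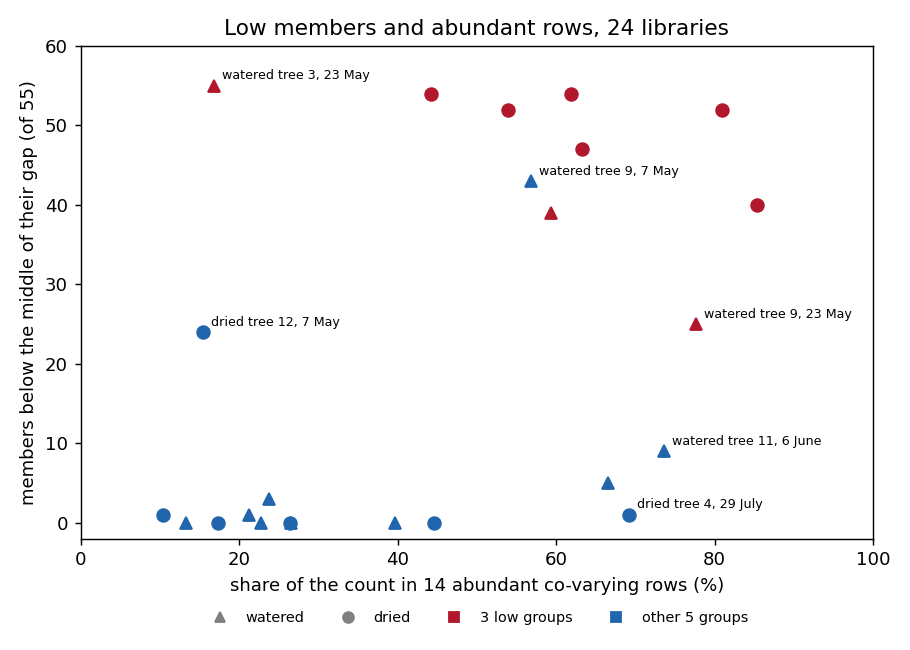
Number of the 55 members below the middle of their gap, against the share in percent of a library's count that fell in the 14 abundant rows, for 24 libraries. Low libraries appear from 16.9% to 85.4% on the horizontal axis, and watered libraries with a share above 60% and few low members are those of 6 June.

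The fitted changes that the rule had used are given as a description, from edgeR's quasi-likelihood test with Benjamini-Hochberg adjustment over 29107 rows. All 55 members passed the filter on low counts. In dried trees on 23 May against 7 May the median member's log2 fold change was -2.66, against -0.26 over all rows, and 0 members were called lower, where 0.0928% of rows were. At an unadjusted p under 0.05, 42 members were lower, beside 13.9% of rows. In watered trees on 23 May against 7 May the median was -1.58 (all rows 0.01), with 0 members and 0.0103% of rows called lower, and 24 members lower at an unadjusted p under 0.05, beside 8.32% of rows. In dried trees on 6 June against 7 May it was -2.99 (all rows -0.20), and 4 members were called lower, beside 0.876% of rows. For dried against watered trees on 6 June it was -2.78 (all rows -0.25), with 0 members and 0.0825% of rows called lower, and 42 members lower at an unadjusted p under 0.05, beside 15.9% of rows. In dried trees on 29 July against 6 June it was 2.79 (all rows 0.20), and 21 members were called higher, beside 7.5% of rows. DESeq2 called more of them: 26 members where it called 6.92% of rows lower, 8 where it called 3.32%, 32 where it called 10.2%, 31 where it called 9.08%, and 36 where it called 15.4% of rows higher, in the same order. Each of these contrasts chose the members, so no support is drawn from the counts.

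These values depended on single libraries. Without watered tree 9 on 7 May, the median member's log2 fold change in watered trees from 7 May to 23 May was -2.03 in place of -1.58. The number of members called in dried trees on 6 June against 7 May was 31 without that library in place of 4, 14 without dried tree 12 on 7 May, and 0 without dried tree 4 on 6 June. It was 16 and 14 without the libraries of watered trees 3 and 9 on 23 May. In dried trees on 29 July against 6 June, 38 members were called without watered tree 9 on 7 May, 32 without watered tree 9 on 23 May and 10 without dried tree 4 on 6 June, in place of 21. With the tree as a replicate block, which pairs the libraries of 1 tree, 13 members were called in that contrast and 0 in dried trees on 6 June against 7 May. Shares of all rows called in these fits are not set beside the counts. The changes are therefore not read as particular to the members.

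The rule did not rank rows by contrasts among the other 5 groups. It did require every one of those groups to be high, and the lowest of them set the gap. Results of these contrasts are therefore a description too. The contrasts ask whether members differed between the arms at the first and last day, and whether the level of 29 July differed from that of 7 May. In all 6 of these contrasts, 0 members were called by edgeR, where 0% of rows were called, so nothing is read from that count. DESeq2 also called 0 members in each, but on 7 May it gave 36 of the 55 members no adjusted p, so only the other 19 could be called there.

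On 7 May, the first sampling, 38 of the 55 members had positive and 17 negative log2 fold changes for dried against watered trees, with a median of 0.23 against 0.08 over all rows. A single member had an unadjusted p under 0.05, beside 3.40% of rows, and DESeq2 called 0.235% of rows. This was Oeu004172.1, at -2.08 ± 0.92 (log2 fold change ± SE, 3 trees in each arm, adjusted p = 1 by edgeR). It had 129, 1100.2 and 79.0 scaled counts in watered trees 3, 9 and 11 and 132, 107 and 46.2 in dried trees 4, 8 and 12, so watered tree 9 was the highest of the day, and the other 2 watered trees lay within the range of the dried ones. Leaving out the library of watered tree 9 changed the median of the members to -0.20.

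On 29 July, the last sampling, 13 of the members had positive and 42 negative log2 fold changes for dried against watered trees, with a median of -0.19 against -0.01 over all rows and a range of -0.90 to 0.56. None had an unadjusted p under 0.05, beside 0.141% of rows, and DESeq2 called 0.0553% of rows. All 6 libraries of that day had median member levels between 6.64 and 7.08.

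In watered trees on 6 June against 7 May, 27 members had positive and 28 negative log2 fold changes, with a median of -0.00 against 0.03 over all rows. None had an unadjusted p under 0.05, beside 9.01% of rows, and DESeq2 called 1.64% of rows. The median was -0.47 without watered tree 9 on 7 May. Watered trees on this day held a high share of abundant rows in trees 9 and 11 and a low one, 13.3%, in tree 3, which was the highest of the group for 36 members.

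In dried trees on 29 July against 7 May, 26 members had positive and 29 negative log2 fold changes, with a median of -0.05 against -0.02 over all rows. The only member with an unadjusted p under 0.05, beside 3.11% of rows, was Oeu006750.1, at -1.68 ± 0.76 (log2 fold change ± SE, n = 3 trees per day, edgeR adjusted p = 1). It had 719.7, 779 and 156 scaled counts in dried trees 4, 8 and 12 on 7 May and 194, 114 and 214 on 29 July. Tree 12 on 7 May lay within the range of 29 July, so the days overlap. DESeq2 called 0.152% of rows in this contrast.

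In watered trees on 29 July against 7 May, 42 members had positive and 13 negative log2 fold changes, with a median of 0.40 against 0.09 over all rows. None had an unadjusted p under 0.05, beside 8.21% of rows, and DESeq2 called 2.39% of rows. Without watered tree 9 on 7 May the median was -0.05, so its sign rested on that library. The change from 7 May to 29 July in dried minus watered trees had a median of -0.43 against -0.06 over all rows, with 10 members positive and 45 negative. Without watered tree 9 on 7 May it was 0.05, and without the tree on all days 0.0025 (28 positive and 27 negative), so this sign rested on the same tree. Here, too, none had an unadjusted p under 0.05, beside 1.14% of rows, and DESeq2 called 0.0484% of rows. That no member was called does not show that the levels were equal. By limma on log2(scaled value + 1), the member medians were further from 0. They were 0.89 on 7 May (48 positive), 0.92 for watered trees on 6 June (48 positive and 7 negative), 1.45 for watered trees on 29 July (49 positive) and -1.05 for the difference of the changes (5 positive). For dried trees on 29 July against 7 May the limma median was 0.28 (38 positive) in place of -0.05. With single dried trees left out, the edgeR median of that contrast ran from -0.21 to 0.21.

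**Figure D4:**
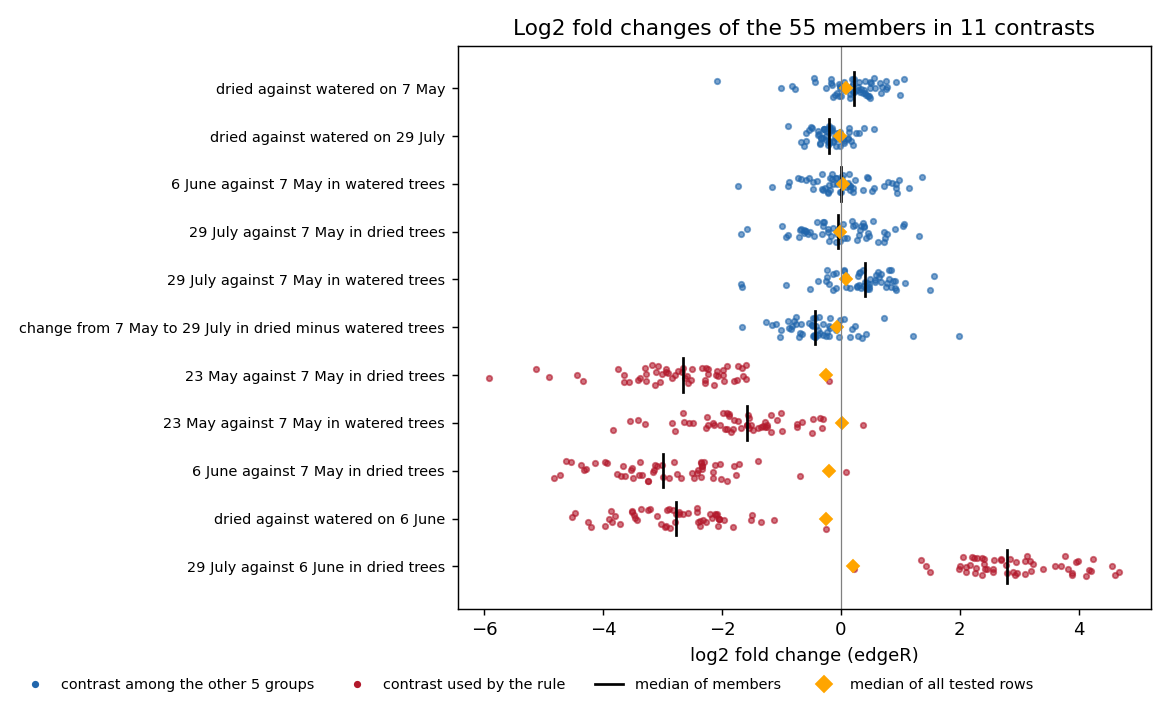
Log2 fold changes of the 55 members by edgeR in 11 contrasts, 1 point per member, with the median of the members as a line and the median of all 29107 rows as a diamond. The 6 contrasts among the other groups (blue) have member medians from -0.43 to 0.40. Both ends move to within 0.05 of 0 without watered tree 9 on 7 May. Other medians do not: that of watered trees on 6 June against 7 May then lies further below 0. The median for dried against watered trees on 7 May turns negative. The 5 contrasts used by the rule (red) have medians of -2.99 to -1.58 or 2.79.

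Members also varied together beyond the group means. The deviations of their log2 levels from their group means correlated across the 24 libraries at a median r of 0.50 over 1485 pairs, and 83.3% of pairs were above 0. Over 19289 tested rows with a median level of at least 4, each pair taken the same way had a median of 0.03. Without watered tree 9 on 7 May, the member median was 0.34, and without tree 9 on both May days it was 0.37. These are descriptions: pairs share libraries and depth, and the rule chose rows that have the same trees in common as low or high. The order of trees within groups shows the same. Watered tree 9 was the lowest of its group on 7 May for 47 members, dried tree 12 on 7 May for 46 and watered tree 3 on 23 May for 37. Dried tree 4 was the highest of its group on 6 June for 37 members.

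Beyond level and pattern, the files hold little else about the members. Their IDs belong to 55 different gene models. Expected counts that are not whole, which arise when reads are shared among similar transcripts, occurred for 40 of 55 members (72.7%) and for 70.1% of the rows tested. Lowest levels in the other groups were under 6 for 24 members and at least 8 for 4, with the rest between these bounds.

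The authors' short names mark 86 rows of carbohydrate metabolism in the scaled table, and 0 of them met the criteria. They were picked by the authors, perhaps with these samples in view, and are compared with the members by the same quantities. A gap above 0, with all 3 low groups below all others, was found for 19 of 86 named rows (22.1%) and for 14.7% of all ID rows. Of 11 sucsynthase rows (sucrose synthase, which splits sucrose) 6 had one, of 5 gpt rows 3, of 3 sbe rows (starch branching enzyme) 2, and of 7 agp rows (ADP-glucose pyrophosphorylase, which makes the substrate of starch synthesis) 2. Of 13 bamylase rows (beta-amylase, which releases maltose from starch) 1 had one and of 5 invertase rows (which split sucrose into glucose and fructose) 0. Starch synthase rows (starchsyn) had one in 1 of 10, hexokinase rows in 2 of 8, dpe rows in 1 of 2, isoamylase rows in 1 of 3, and starchp rows in 0 of 3. Rows of the 6 other families had none.

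The largest gap among named rows was that of gpt2, by its name a glucose-6-phosphate translocator of plastids, at 2.49. It missed the rule because its low medians spanned 3.39. It had 217, 231 and 84.6 scaled counts in watered trees 3, 9 and 11 on 7 May, 3.17, 36.7 and 9.50 on 23 May, 364, 57.9 and 46.0 on 6 June and 1232, 1035 and 1505 on 29 July. Dried trees 4, 8 and 12 had 342, 47.1 and 89.9 on 7 May, 0, 0 and 7.06 on 23 May, 16.4, 4.85 and 1.01 on 6 June, and 850.0, 226 and 1599 on 29 July. Every low library was below every other library for gpt2, which was singled out after its values were seen. The row agp2 had a gap of 1.30 and a range of 3.15, sucsynthase10 1.29 and 2.24, sucsynthase11 0.90 and 1.34, and gpt4 1.05 and 1.56.

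Likeness to the members was measured as Pearson's r between a row's log2 levels and the median member level across libraries. Because the libraries fall into a low and a high set, r is given within the 15 libraries of the other groups and within the 9 low libraries, and all of these are descriptions. The 5 named rows with the highest r over all libraries were sucsynthase11, starchsyn4, sbe1, agp2 and bamylase13. Within the 15 other libraries their r was 0.95, 0.86, 0.83, 0.75 and 0.90, and within the 9 low libraries it was 0.70, 0.58, 0.55, 0.48 and 0.46. Among the 15, watered tree 9 and dried tree 12 of 7 May were the libraries in which the members stood lowest. The 5 with the lowest r were bamylase3, bamylase2, bamylase10, bamylase11 and invertase2, at -0.90, -0.89, -0.77, -0.91 and -0.94 within the 15 libraries and -0.94, -0.69, -0.43, -0.88 and -0.51 within the 9. Of the 15, watered tree 9 and dried tree 12 of 7 May were also where bamylase3, bamylase11 and invertase2 stood highest. They stood at 9.50 and 8.35, 13.65 and 11.67, and 13.13 and 10.03 on the log2 scale. No r within the 15 is given without these libraries, so likeness over the rest is not read from it. Both sets of named rows share depth and library with the members.

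The most like of them, sucsynthase11, had 697, 61.3 and 542 scaled counts in watered trees 3, 9 and 11 on 7 May and 129.8, 224 and 473 on 23 May. It had 924, 417 and 284 on 6 June and 788, 642 and 617 on 29 July. In dried trees 4, 8 and 12 it had 576, 575 and 299 on 7 May, 105, 81.2 and 109 on 23 May, 169, 64.7 and 88.0 on 6 June and 668, 805 and 639.9 on 29 July. Like the median member, it was low in watered tree 9 on 7 May and in dried trees on both middle days. The beta-amylase row bamylase3 ran the other way, with 8.33, 725 and 30.4 scaled counts in watered trees on 7 May and 1106, 26.7 and 133 on 23 May. Its dried libraries held 242, 466 and 134 on 23 May and 126, 715 and 282 on 6 June, against 11, 15.2 and 8.19 on 29 July.

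**Figure D5:**
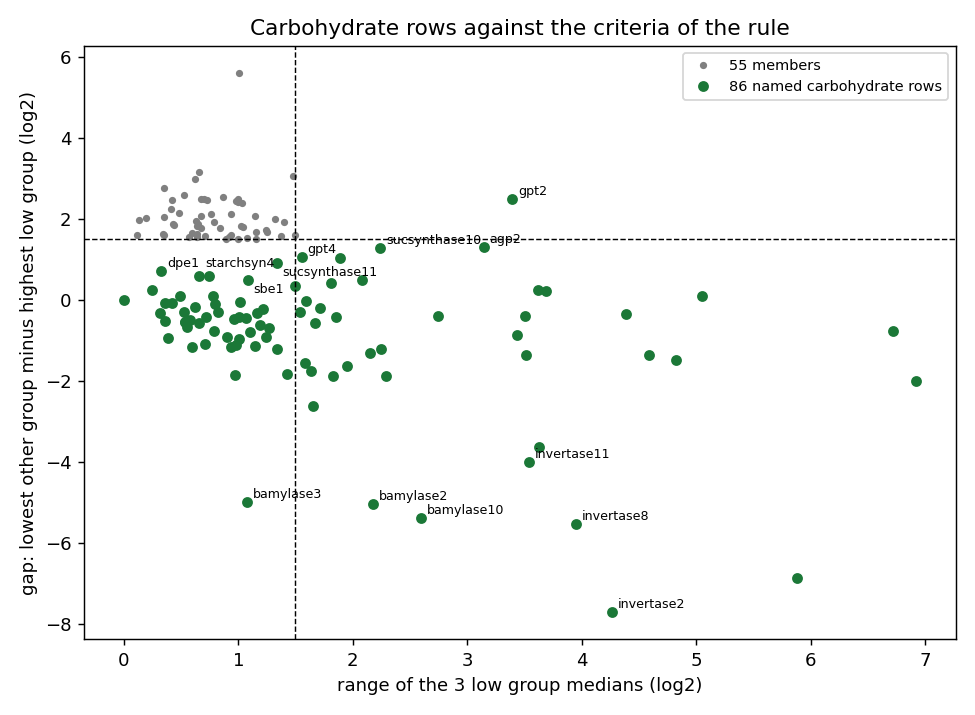
Gap against the range of the 3 low group medians, both as log2 differences, for the 55 members (grey) and 86 named carbohydrate rows (green), with dashed lines at 1.5. The row gpt2 lies above the gap line and right of the range line, and beta-amylase and invertase rows lie lowest, with a gap of -7.71 for invertase2.

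Of 87 named rows tested by edgeR, 20 rose and 6 fell in dried trees from 6 June to 29 July (adjusted p under 0.05 over all 29107 rows), where 7.5% and 5.58% of all rows did. Those that rose included 4 of 7 agp rows, 4 of 11 sucsynthase rows, 3 of 10 starchsyn rows and sbe1. They also included 2 of 3 starchp rows, bamylase12, dpe2, gpt2, hexokinase9, mex1 and pgm4. By edgeR, sucsynthase11 rose by 2.71 ± 0.67, sbe1 by 2.08 ± 0.60 and starchsyn4 by 2.81 ± 0.89 (log2 fold change ± SE, n = 3 trees per day, adjusted p = 0.0264, 0.0348 and 0.0444). The 6 that fell were bamylase2, bamylase3, bamylase10 and 3 of 5 invertase rows. In dried trees from 7 May to 6 June, 2 named rows fell, hexokinase9 and starchsyn1, beside 0.876% of all rows. For dried against watered trees on 6 June 1 was lower, starchsyn1 (edgeR adjusted p = 0.0472), beside 0.0825% of all rows. In each of the 8 other contrasts 0 named rows were called. The counts in dried trees from 6 June to 29 July depended on single libraries: 29 rose and 9 fell without watered tree 9 on 7 May, and 13 rose and 4 fell without dried tree 4 on 6 June. Without any 1 of the dried trees, 0 were called. In dried trees from 7 May to 6 June, 20 fell and 5 rose without watered tree 9 on 7 May, and 0 were called without dried tree 4 on 6 June. For the arms on 6 June these numbers were 18 lower, 5 higher and 0. DESeq2 called 34 higher and 10 lower, 23 lower and 2 higher, and 17 lower and 6 higher in the same 3 contrasts. Of all rows it called 15.4% higher in the first, 10.2% lower in the second and 9.08% lower in the third. Shares of all rows are not set beside the opposite directions or the fits with libraries left out. Those counts are therefore not read as particular to the named rows.

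The labels do not tie the comparison names in the authors' deposited table to days, but its values do. Log2 fold changes of DESeq2 with the tree as a replicate block matched those in the authors' deposited table within 0.1 for 99.5% to 99.8% of rows in the 7 comparisons given here. A positive sign there means higher in the first-named of the samples. In these terms ctrl_0_ctrl_1 sets watered trees on 7 May against 23 May, and ctrl_0_drought_1 and ctrl_0_drought_2 set dried trees on 7 May against 23 May and 6 June. In the same way after_3_drought_2 sets dried trees on 29 July against 6 June, and ctrl_1_ctrl_2 sets watered trees on 23 May against 6 June. The comparisons ctrl_2_drought_2 and after_3_ctrl_3 matched the difference between the arms in their changes from 7 May to 6 June and to 29 July.

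All of these used groups that chose the members, so their counts are a description. The last, after_3_ctrl_3, used only groups that the rule required to be high. By the authors' deposited table, 6 members were higher on 7 May than on 23 May in watered trees (adjusted p under 0.05), beside 2.15% of rows. In dried trees, by the authors' deposited table, 28 were higher on 7 May than on 23 May, beside 6.94% of rows, and 34 were higher on 7 May than on 6 June, beside 9.61%. From the authors' deposited table, 41 were higher in dried trees on 29 July than on 6 June, beside 15.5% of rows. In ctrl_2_drought_2 of the authors' deposited table, 14 had a more negative change in dried than in watered trees, beside 4.79% of rows. The authors' deposited table has 2 members lower in watered trees on 23 May than on 6 June, beside 0.163% of rows. Of the members, 0 passed in after_3_ctrl_3 of the authors' deposited table, beside 0.022% of rows in either direction.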

How the data were processed

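Branch RNA of 6 olive trees on 4 days gave 24 libraries, grouped by arm and day as the labels state. The deposited table of expected counts (50663 rows) holds RSEM estimates, which were rounded here before testing. A deposited table of 31870 rows, 31784 with gene model IDs and 86 with short names, holds signal values in which the authors scaled the rounded counts by 1 constant per library, with no further correction seen. In another deposited table the authors list log2 fold changes and adjusted p-values. The submitters' processing notes name Bowtie2, cutadapt, DESeq2, limma and RSEM, per the labels, and versions and genome build are not given in the sources used here.

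Members were found by the rule on the scaled values. The members and lists were chosen with earlier results of these data known. The test on counts was edgeR 4.0.16 under R 4.3.3 (quasi-likelihood fit, TMM, filterByExpr by group, 1 mean per group, 24 libraries, adjusted p under 0.05 over 29107 rows). A standard error is the size of the log2 fold change divided by the root of its F statistic. The fit was tested on simulated counts for a single contrast, with a fixed dispersion and independent libraries. That test does not cover libraries that stand apart or trees sampled repeatedly, so it does not show how the fit performs on these data. Alternatives were DESeq2 1.42.0, its size factors, no filter, limma 3.58.1 on log2(scaled value + 1), each tree left out, single libraries left out and the tree as a block. DESeq2 with the block and the fits without dried tree 12 of 7 May or dried tree 4 of 6 June were added after seeing the data, as was the rule without single watered libraries of 23 May.

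Because the same trees were sampled, tree numbers pair days within an arm but not the arms. Libraries of the same tree correlated in their deviations from the group means at -0.03 to 0.18, averaged within each tree. No pair of libraries held identical counts.

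Printed IDs were the 2 members with the largest gap, the 2 with the highest level, the members of smallest p in tested contrasts where p was under 0.05, and the 5 named rows most and the 5 least like the median member. Any other was chosen after its values were seen.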

Additional observations from a re-analysis of the deposited data

How the results depend on the processing

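In the 6 contrasts among the groups outside the low set, 0 members were called under every alternative run, where an adjusted p was given: DESeq2 gave none to 36 members on 7 May, and with the replicate block none to 9 and 3 in watered trees on 6 June and 29 July. Counts in the contrasts that chose the members depended on tool and library, and the cause was not tested. Shares of all rows called stand above for edgeR without the block and DESeq2 without the block, with all libraries kept. The other settings have none beside them, so no change in count is read as particular to the members. For dried trees on 23 May against 7 May (0 by edgeR) DESeq2 called 26, no filter 8, limma 5 and DESeq2 with the replicate block 27. There, 19 were called without watered tree 9 of 7 May, 10 and 5 without watered trees 3 and 9 of 23 May, and 7 without dried tree 12 of 7 May. For watered trees on 23 May against 7 May (0) DESeq2 called 8, and 6 with the block. For dried trees on 6 June against 7 May (4) DESeq2 called 32, no filter 10, limma 8, the replicate block 0 and DESeq2 with it 36, with 31, 16, 14, 14 and 0 without watered tree 9 of 7 May, watered trees 3 and 9 of 23 May, dried tree 12 of 7 May and dried tree 4 of 6 June. For dried against watered trees on 6 June (0) DESeq2 called 31, no filter 5 and limma 4, with 27, 10, 9 and 5 without the first 4 of those libraries. For dried trees on 29 July against 6 June (21) DESeq2 called 36, the replicate block 13 and DESeq2 with it 42, with 38, 32 and 10 without watered tree 9 of 7 May, watered tree 9 of 23 May and dried tree 4 of 6 June. Leaving out 1 tree gave 0 to 22, 0 to 35, 0 to 24 and 0 to 42 in the dried contrasts of 23 May and 6 June, the contrast of arms on 6 June and the contrast of 29 July with 6 June.

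By edgeR the block moved no other count. Of the 55 members, the rule kept 10 with means in place of medians, 34 and 19 without watered trees 9 and 3 of 23 May, 53 without watered tree 9 of 7 May, 2 to 22 with 1 tree left out, and 0 when the gap was taken between single libraries. A pseudocount of 0.5 or 4 kept 52 or 42, and TMM-scaled values 47. The number of rows meeting the rule, 55, was 214 and 24 without watered trees 9 and 3 of 23 May, 77 without watered tree 9 of 7 May, 22 with means, and 3 to 273 with 1 tree left out (3 without watered tree 3, 273 without watered tree 9). In low libraries, 2 to 20.2 counts for the median member limit how exactly a low level is known.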
